A study of Homo sapiens with 2 samples.

Results

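The proteasome subunit genes were taken as all genes whose symbol in the array annotation is PSMA, PSMB, PSMC, PSMD, PSME or PSMG followed by digits only. This rule found 43 genes of the 20046 named on the array, read by 69 probes. It used no measured value. The genes were compared between HCT-8/V, a vincristine-resistant line, and the human colon cancer line HCT-8, on Illumina bead arrays, with 1 array for each line and no replicate. Both cultures carry the same treatment text, the plasmid pcDNA3.1-Twist for 48 h, and both were grown in RPMI medium with serum. The labels do not say how long or with what dose the resistant line was selected, or whether it is 1 clone, and since both labels name the plasmid, its own effect could not be estimated.

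The proteasome is the main protease of the cytosol and nucleus and degrades proteins tagged with ubiquitin. Its core particle is a stack of alpha rings around beta rings, and the beta rings hold the active sites. A regulatory particle, made of a base with ATPases and a lid, binds ubiquitin chains, removes them and unfolds the substrate. Interferon induces alternative catalytic beta subunits and an alternative activator, which together form the immunoproteasome. Proteasome inhibitors are used against myeloma, where plasma cells depend on the complex for their high protein turnover.

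Values are deposited intensities in linear units, some of them below 0. Each gene is given by its brightest probe by mean intensity unless stated. The floor for reading a gene was each array's median over all probes, 12.42 in HCT-8/V and 12.44 in HCT-8, and every log2 difference sets HCT-8/V over HCT-8. With 1 array per line no test was possible, so differences are described by size and carry no p-value, and separate cultures could differ by as much. The only spread that the arrays offer is between probes of 1 gene: over 1535 genes with a pair of probes above the 75th percentile of all probes (81.3) on both arrays, the log2 difference had an SD of 0.28 per probe, and the pair went the same way in 60.3% of genes.

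The labelled tissue was checked first. Of 12 epithelial and colon markers, 5 exceeded the floor in one line or both, with KRT8 at 2283 in HCT-8/V and 2199 in HCT-8. The other 7, among them CDH1, VIL1, CDX2, LGALS4 and KRT20, were below the floor in both lines. The intestinal cadherin gene CDH17 was above it but dim, at 65.6 in HCT-8/V and 66.4 in HCT-8, and EPCAM read 80.0 in HCT-8/V and 117 in HCT-8. Most of the defining colon markers were thus not read in either culture. Of 8 fibroblast and endothelial markers 6 were above the floor, and their summed intensity was 1216 in HCT-8/V and 883 in HCT-8, most of it from the matrix gene DCN (854 in HCT-8/V and 625 in HCT-8). Of 7 lymphoid and myeloid markers 4 were above the floor, with CD68, a lysosomal gene that is also expressed outside macrophages, at 1153 in HCT-8/V and 844 in HCT-8, while PTPRC and CD3E were below it. The part of these differences in the proteasome values was not tested.

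To show the start sites of interferon-induced and other members, promoter sequences from RefSeq (GRCh38.p14, 250 bases before to 50 after the start) were searched on both strands for an interferon-type element (GAAA, any 2 bases, then GAAA again) and for the antioxidant-type element TGACNNNGC, which NFE2L1 and NFE2L2 are known to bind. Promoters were found for 38 of the 43 genes, 45 promoters in all. The interferon-type letters were in 7 of the 45 promoters (15.6%), against 3.57% of all 35116 promoters in the table. Its commonest spelling among the members, GAAAGCGAAA, was in 5 (11.1%), in PSMB8, PSMB10, PSME1, PSME2 and PSMG4, against 35 of all promoters (0.0997%); since the spelling was picked from the members, this contrast is a description of them. The antioxidant-type letters were in 14 (31.1%), against 13.3% of all promoters. PSMB9 had no interferon-type match, and neither had the other of the 2 PSMB8 promoters, while PSMG4 is no member of the immunoproteasome. No base was shared by a match of one element and a match of the other. The 5 promoters with GAAAGCGAAA are shown with both elements in capitals, 5′ to 3′ along each gene.
PSMB8 (chr6:32843998-32844297, minus strand): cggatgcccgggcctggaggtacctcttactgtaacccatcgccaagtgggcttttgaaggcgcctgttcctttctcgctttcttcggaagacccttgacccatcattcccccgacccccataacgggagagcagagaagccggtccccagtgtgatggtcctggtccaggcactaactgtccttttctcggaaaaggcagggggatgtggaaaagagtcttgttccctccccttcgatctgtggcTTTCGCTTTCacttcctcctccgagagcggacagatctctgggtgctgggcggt
PSMB10 (chr16:67936801-67937100, minus strand): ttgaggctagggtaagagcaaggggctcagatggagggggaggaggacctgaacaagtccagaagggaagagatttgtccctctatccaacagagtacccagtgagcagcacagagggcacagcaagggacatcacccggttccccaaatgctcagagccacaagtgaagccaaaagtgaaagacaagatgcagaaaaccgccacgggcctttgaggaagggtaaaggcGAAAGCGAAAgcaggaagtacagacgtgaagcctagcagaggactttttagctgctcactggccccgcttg
PSME1 (chr14:24135944-24136243, plus strand): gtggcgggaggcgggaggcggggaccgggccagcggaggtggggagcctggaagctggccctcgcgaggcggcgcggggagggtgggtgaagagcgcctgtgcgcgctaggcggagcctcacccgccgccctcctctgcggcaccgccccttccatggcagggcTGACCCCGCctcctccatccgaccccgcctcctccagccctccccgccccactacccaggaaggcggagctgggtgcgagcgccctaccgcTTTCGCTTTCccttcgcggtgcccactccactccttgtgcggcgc
PSME2 (chr14:24146561-24146860, minus strand): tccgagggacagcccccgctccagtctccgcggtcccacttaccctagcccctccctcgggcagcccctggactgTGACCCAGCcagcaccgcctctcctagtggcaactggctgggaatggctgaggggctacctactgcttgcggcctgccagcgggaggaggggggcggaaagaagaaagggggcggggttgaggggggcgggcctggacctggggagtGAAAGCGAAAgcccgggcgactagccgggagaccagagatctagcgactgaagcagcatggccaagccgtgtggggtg
PSMG4 (chr6:3258697-3258996, plus strand): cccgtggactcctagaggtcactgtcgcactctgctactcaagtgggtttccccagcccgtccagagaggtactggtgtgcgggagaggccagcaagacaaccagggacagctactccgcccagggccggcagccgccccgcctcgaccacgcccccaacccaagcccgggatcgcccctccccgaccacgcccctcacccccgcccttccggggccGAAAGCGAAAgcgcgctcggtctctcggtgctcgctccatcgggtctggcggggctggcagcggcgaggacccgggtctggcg
In PSMB8 and PSME1 the interferon-type element lies on the opposite strand, so its reverse complement is in capitals. PSMB3 and PSMD12, which lie on opposite sides of zero below, are shown for the antioxidant-type element, in capitals.
PSMB3 (chr17:38752491-38752790, plus strand): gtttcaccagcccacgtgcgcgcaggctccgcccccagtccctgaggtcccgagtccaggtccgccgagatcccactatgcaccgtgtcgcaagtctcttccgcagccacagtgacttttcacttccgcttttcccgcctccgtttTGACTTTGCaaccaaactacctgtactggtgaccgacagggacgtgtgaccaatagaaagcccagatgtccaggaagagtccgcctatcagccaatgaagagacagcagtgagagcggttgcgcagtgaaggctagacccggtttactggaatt
PSMD12 (chr17:67366528-67366827, minus strand): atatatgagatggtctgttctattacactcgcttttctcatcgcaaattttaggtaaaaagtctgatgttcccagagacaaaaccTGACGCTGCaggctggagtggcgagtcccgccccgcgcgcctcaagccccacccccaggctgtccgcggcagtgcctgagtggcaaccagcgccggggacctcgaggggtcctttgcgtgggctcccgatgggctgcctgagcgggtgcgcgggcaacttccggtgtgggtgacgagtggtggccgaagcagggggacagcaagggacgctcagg
A match of letters is a description of the sequence and does not show that a factor binds there.

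Most proteasome genes were clearly measured in both lines, and the differences between them were small. Of the 43 genes, 42 exceeded the floor in one line or both and 40 were above the 75th percentile of all probes on both. In HCT-8/V 28 of the 42 read higher, 13 lower and 1 equal, a share of 66.7% higher where 52.8% of all 13763 genes above the floor were higher and 47.1% lower. Centred on the median of all genes, the split was 24 higher and 18 lower, and with the mean over probes it was also 24 and 18, with a median log2 difference of 0.04. The median log2 difference was 0.12 for the proteasome genes and 0.03 for all genes above the floor. Among genes with a mean intensity of 1000 or more, where differences of all genes are narrower, 16 of 22 proteasome genes were higher with a median of 0.12, against 50.3% of 1566 genes with a median near 0. The SD across genes in this class was 0.28 for the proteasome and 0.25 for all genes, so the proteasome genes were spread about as widely as others of their brightness.

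Only 3 members differed by at least 1.5-fold, all of them higher in HCT-8/V, and none was 1.5-fold lower. This is 3 of 42 where 12.8% of all genes above the floor were that much higher and 11.2% that much lower. By a log2 difference of at least 0.322, 12 members were higher and 7 lower, where 25.8% and 22.0% of all genes were. No member reached 2-fold, which 4.24% of all genes did on the high side and 3.77% on the low side. In the class of 1000 or more, 5 of 22 members were higher by at least 0.322 on the log2 scale, where 9.9% of all genes of that class were, and 1 was lower, where 9.9% were. Of the 3 genes, PSMD4 falls in that class, in which 0.958% of all genes were at least 1.5-fold higher.

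**Figure D1:**
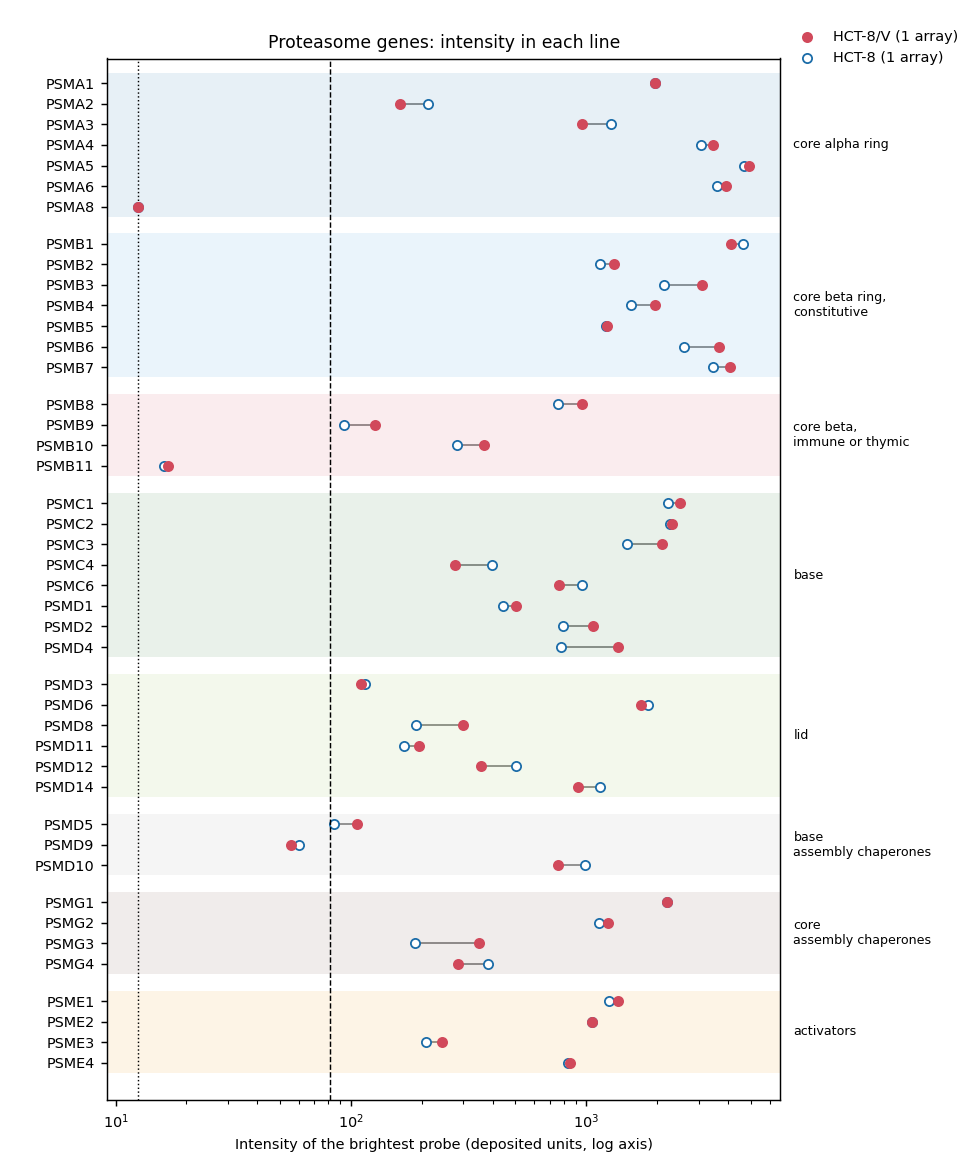
Intensity of the brightest probe of each of the 43 proteasome genes on a log axis, in HCT-8/V (filled) and HCT-8 (open), grouped by subcomplex, with 1 array per line. Values under the floor are drawn at it (dotted line, 12.4), and the dashed line is the 75th percentile of all probes (81.3); PSMG3, PSMD4 and PSMD8 show the widest gaps towards HCT-8/V.

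In the alpha ring, which gates entry to the core, 4 of 6 genes above the floor were higher in HCT-8/V and 2 were lower, with a median log2 difference of 0.04. PSMA5 read 4928 in HCT-8/V and 4694 in HCT-8, and PSMA6 read 3908 in HCT-8/V and 3579 in HCT-8. PSMA1 was nearly equal, at 1961 in HCT-8/V and 1948 in HCT-8, and PSMA4 read 3443 in HCT-8/V and 3080 in HCT-8. These 4 genes differed by 1.12-fold at most. Probes disagreed in 2 of them: another probe of PSMA4 read 1582 in HCT-8/V and 1777 in HCT-8, and another of PSMA1 read 417 in HCT-8/V and 471 in HCT-8. The exceptions were PSMA3, at 955 in HCT-8/V and 1267 in HCT-8 (log2 -0.41), and PSMA2, at 162 in HCT-8/V and 212 in HCT-8 (log2 -0.39). The second probe of PSMA3 also read lower, at 563 in HCT-8/V and 627 in HCT-8. PSMA8, a testis form of an alpha subunit, was below 0 in both lines, at -15.0 in HCT-8/V and -9.06 in HCT-8, and no fold is given.

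In the constitutive beta ring 6 of 7 genes were higher in HCT-8/V, each on its only probe, with a median log2 difference of 0.23. The largest differences were in PSMB3, a structural beta subunit without an active site, at 3087 in HCT-8/V and 2127 in HCT-8 (log2 0.54, 1.45-fold), and in PSMB6. PSMB6 holds the caspase-like site and read 3665 in HCT-8/V and 2600 in HCT-8 (log2 0.50, 1.41-fold). Both differences exceed the SD per probe of 0.28, but neither gene has a second probe to set beside it. That SD comes from probes on the same arrays and does not measure variation between arrays or cultures. PSMB7, with the trypsin-like site, read 4061 in HCT-8/V and 3456 in HCT-8 (log2 0.23), within that SD. PSMB5, with the chymotrypsin-like site that bortezomib blocks, was nearly equal, at 1229 in HCT-8/V and 1217 in HCT-8. The 3 constitutive catalytic genes thus did not share 1 size of difference. Of the other structural beta genes, PSMB4 read 1953 in HCT-8/V and 1551 in HCT-8, PSMB2 1313 in HCT-8/V and 1146 in HCT-8, and PSMB1 4106 in HCT-8/V and 4608 in HCT-8. PSMB1 was the 1 lower gene of the ring.

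The interferon-induced beta subunits were each higher in HCT-8/V on their brightest probe, by similar amounts. PSMB8, which takes the place of PSMB5, read 960 in HCT-8/V and 759 in HCT-8 (log2 0.34). PSMB9, which takes the place of PSMB6, read 127 in HCT-8/V and 93.0 in HCT-8 (log2 0.45), and PSMB10, which takes the place of PSMB7, read 366 in HCT-8/V and 282 in HCT-8 (log2 0.38). Other probes were split for PSMB8 and opposite for PSMB9. A second probe of PSMB8 read 608 in HCT-8/V and 476 in HCT-8, in the same direction, but its 2 dimmest read 91.9 and 63.3 in HCT-8/V against 157 and 72.3 in HCT-8. The second probe of PSMB9 was below the floor in HCT-8/V, at 6.68, and read 39.2 in HCT-8, which makes it at least 3.16-fold lower. Averaged over probes, the log2 difference was -0.07 for PSMB8 and -0.60 for PSMB9, a change of direction for both. PSMB10 has 1 probe. The thymus-specific PSMB11 lay just above the floor, at 16.7 in HCT-8/V and 16.1 in HCT-8.

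The activator genes differed little. PSME1 and PSME2, which form the interferon-induced activator ring, read 1357 and 1054 in HCT-8/V against 1254 and 1056 in HCT-8, log2 differences of 0.11 and -0.0037. Both promoters hold GAAAGCGAAA, as do those of PSMB8 and PSMB10, so genes with these letters did not share 1 size of difference: the 5 of them ranged from PSMG4 (log2 -0.43) to PSMB10 (log2 0.38), 3 higher and 2 lower. PSME3, the nuclear activator that works without ubiquitin, read 243 in HCT-8/V and 208 in HCT-8, and its second probe read 165 in HCT-8/V and 164 in HCT-8. PSME4, the large activator known from histone turnover in spermatogenesis, read 853 in HCT-8/V and 834 in HCT-8.

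Genes around the immunoproteasome did not move as one. IRF1, the interferon-response factor that binds such elements, read 292 in HCT-8/V and 98.4 in HCT-8 on its single probe (2.97-fold higher). TAP1, the peptide transporter gene that neighbours PSMB9, read 1728 in HCT-8/V and 1327 in HCT-8 (log2 0.38). The other 6 of 8 listed genes above the floor were lower, among them TAP2 (186 in HCT-8/V and 232 in HCT-8) the peptide-trimming gene ERAP2 (8398 in HCT-8/V and 9376 in HCT-8) and B2M (12240 in HCT-8/V and 12425 in HCT-8). NLRC5, the activator of class I genes, was below the floor in HCT-8/V, at 4.54, and read 28.2 in HCT-8, at least 2.27-fold lower but dim. The median of the list was -0.14 on the log2 scale.

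In the base of the regulatory particle 6 of 8 genes were higher in HCT-8/V, with a median log2 difference of 0.17, and the largest difference was in PSMD4. PSMD4 is a subunit that binds ubiquitin chains and read 1360 in HCT-8/V and 782 in HCT-8 (log2 0.80, 1.74-fold). No other gene with a mean of 1000 or more had a higher log2 difference on its brightest probe, among 1566. Its other 2 probes were also higher but by less, at 990 and 489 in HCT-8/V against 868 and 364 in HCT-8, and the mean over the 3 probes was 0.47 (1.39-fold). PSMD2 and PSMD1, the large scaffold subunits, read 1072 and 502 in HCT-8/V against 793 and 443 in HCT-8, so that all 3 PSM-named subunits of the base that are no ATPases were higher. Probes of ADRM1, a further non-ATPase subunit whose name is outside the rule, were split.

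The ATPases of the base, which unfold the substrate, were divided, with 3 of 5 higher and a median log2 difference of 0.03. PSMC3 read 2106 in HCT-8/V and 1493 in HCT-8 (log2 0.50), while PSMC2 was nearly equal, at 2313 in HCT-8/V and 2262 in HCT-8. PSMC4 was lower on its brightest probe, at 276 in HCT-8/V and 397 in HCT-8 (log2 -0.52). Its next probe went the other way, at 249 in HCT-8/V and 182 in HCT-8, and its dimmest read 119 in HCT-8/V and 155 in HCT-8. PSMC6 was lower on both probes, at 765 and 54.6 in HCT-8/V against 963 and 82.0 in HCT-8. PSMC1 read 2490 in HCT-8/V and 2226 in HCT-8, but its second probe read 1445 in HCT-8/V and 1881 in HCT-8, so its direction depends on the probe.

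In the lid 2 of 6 genes were higher in HCT-8/V and 4 lower, with a median log2 difference of -0.09. PSMD8, known in yeast as the last subunit to join the lid, was the widest, at 299 in HCT-8/V and 188 in HCT-8 (log2 0.67, 1.59-fold), on a single probe. PSMD12, a scaffold subunit, went the other way, at 356 in HCT-8/V and 501 in HCT-8 (log2 -0.49); its other 3 probes lay below the floor or within 1 unit above it. PSMD14, the metalloprotease that cuts ubiquitin chains from the substrate, was also lower, at 921 in HCT-8/V and 1147 in HCT-8 (log2 -0.317). Both probes of PSMD6 were lower, the brighter at 1703 in HCT-8/V and 1831 in HCT-8. PSMD11 read 194 in HCT-8/V and 168 in HCT-8, and PSMD3 read 110 in HCT-8/V and 115 in HCT-8. The subunits of 1 lid thus spanned 1.16 log2 units between PSMD12 and PSMD8.

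**Figure D2:**
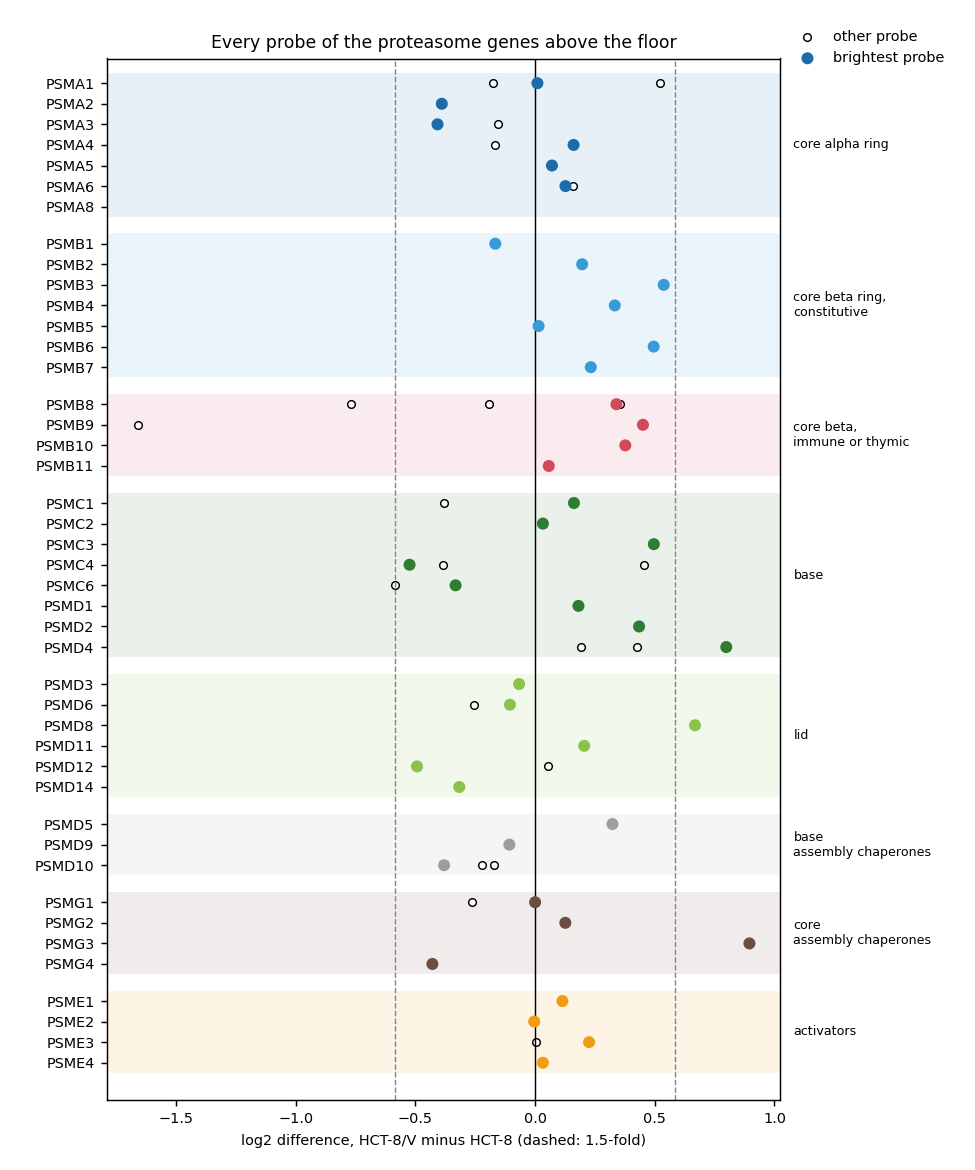
The log2 difference, HCT-8/V minus HCT-8, of each of the 63 probes of proteasome genes that exceeded the floor in either line, with the brightest probe of a gene filled and its others open; dashed lines mark 1.5-fold. All probes of PSMD4 lie to the right of zero and all of PSMD10 and PSMC6 to the left, while those of PSMB8, PSMB9, PSMC1 and PSMC4 lie on both sides.

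Assembly chaperones, which are not part of the finished complex, held the widest difference of all members. PSMG3 read 349 in HCT-8/V and 188 in HCT-8 (log2 0.90, 1.86-fold), on 1 probe. PSMG4, its partner in the dimer that helps build the alpha ring, was lower, at 284 in HCT-8/V and 382 in HCT-8 (log2 -0.43). The partners therefore differed in direction. In the other dimer of this kind, PSMG1 had the same value, 2196, on both arrays, and PSMG2 read 1238 in HCT-8/V and 1135 in HCT-8. The second probe of PSMG1 read 1696 in HCT-8/V and 2037 in HCT-8.

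Of the chaperones of the base, PSMD10 (gankyrin, a protein that is overexpressed in liver cancer) was lower on all 3 of its probes, at 760, 168 and 110 in HCT-8/V against 990, 189 and 128 in HCT-8. PSMD5 read 106 in HCT-8/V and 84.8 in HCT-8 (log2 0.323), and PSMD9 read 55.7 in HCT-8/V and 60.0 in HCT-8. PSMD9 was below the 75th percentile of all probes in both lines.

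Agreement between probes set the limit of what could be read for a single gene. Of the 43 genes, 18 had several probes, and 15 of these had more than 1 above the floor. Their probes all went 1 way in 8 genes and were split in 7. Consistent lower readings came from PSMA3, PSMC6, PSMD6 and PSMD10, and from PSMG1 with 1 equal probe; consistent higher readings came from PSMA6, PSMD4 and PSME3. Over all 63 probes above the floor, 36 were higher in HCT-8/V, 26 lower and 1 equal. With both probes above the 75th percentile on both arrays, 7 of 12 proteasome genes had a pair in the same direction (58.3%), close to the 60.3% over all genes.

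**Figure D3:**
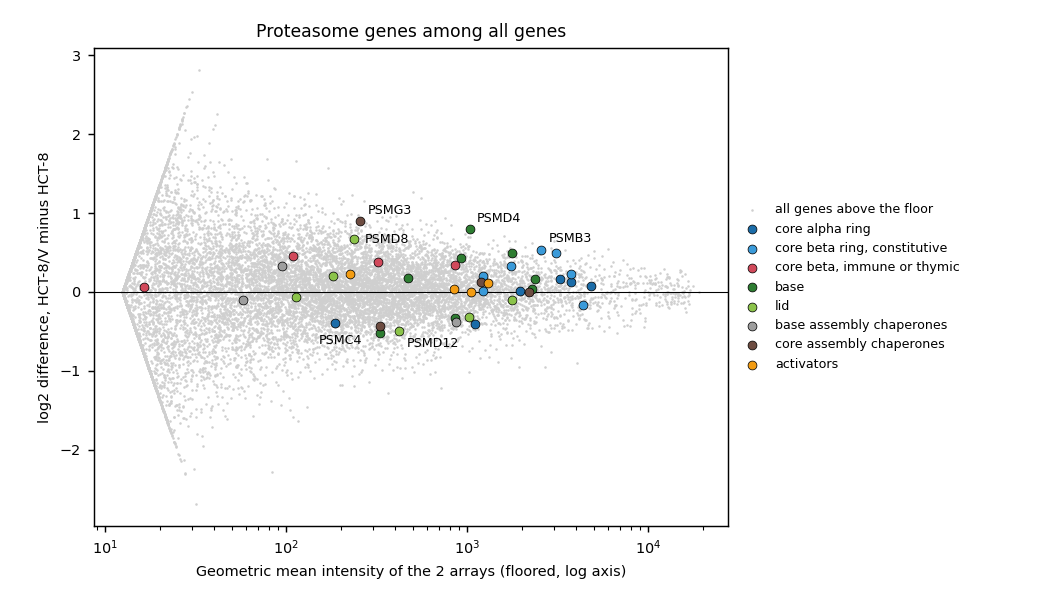
The log2 difference, HCT-8/V minus HCT-8, of the proteasome genes (coloured by subcomplex) and of all 13763 genes above the floor (grey) against the geometric mean intensity of both arrays on a log axis, 1 array per line. Differences of all genes narrow with brightness; PSMD4 lies at the upper edge for its brightness.

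Of 11 listed genes that work with the proteasome but fall outside the naming rule, 9 read lower in HCT-8/V. Among all genes above the floor 47.1% did, and the median log2 difference of the list was -0.12. Most of these differences were small: 3 genes were at least 1.5-fold lower. UBE3C (log2 -0.25), TXNL1 (-0.13), SEM1 (-0.12), PITHD1 (-0.09), PAAF1 (-0.06) and POMP (-0.03) were lower by less than the SD per probe of 0.28. The list was not counted again under centring or with the mean over probes. The deubiquitinase gene USP14, which trims chains on the regulatory particle, read 161 in HCT-8/V and 267 in HCT-8 (1.66-fold lower), and its second probe 71.0 in HCT-8/V and 95.1 in HCT-8. ECPAS, the human relative of a yeast proteasome adaptor, read 427 in HCT-8/V and 653 in HCT-8 (1.53-fold lower), while its second probe, around the floor, read 14.1 in HCT-8/V and 7.23 in HCT-8. PSMF1, known as a proteasome inhibitor in vitro, was dim, at 14.1 in HCT-8/V and 25.0 in HCT-8. The lid subunit SEM1 read 3160 in HCT-8/V and 3443 in HCT-8, the assembly factor POMP 2358 in HCT-8/V and 2415 in HCT-8, and the ubiquitin receptor ADRM1 1719 in HCT-8/V and 1474 in HCT-8. The second probes of SEM1 and ADRM1 went the other way from the first.

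Of 7 regulators of proteasome gene expression above the floor, 5 read lower in HCT-8/V, where 47.1% of all genes above the floor did. Apart from MAFG and the dim DDI2, no log2 difference on a brightest probe was wider than that of MAFF, -0.19. The second probe of MAFF was lower by more, at 76.7 in HCT-8/V and 110 in HCT-8 (log2 -0.52). NFE2L1, the factor that raises proteasome genes when the complex is inhibited, read 251 in HCT-8/V and 279 in HCT-8, and NFE2L2 1299 in HCT-8/V and 1414 in HCT-8. MAFG, a small Maf partner of both, read 110 in HCT-8/V and 227 in HCT-8 (2.06-fold lower), and its second probe 55.5 in HCT-8/V and 163 in HCT-8. DDI2, the protease that activates NFE2L1, lay around the floor, at 15.2 in HCT-8/V and 5.25 in HCT-8. The 2 higher genes were DDI2 and AKIRIN2, a nuclear import factor of proteasomes at 323 in HCT-8/V and 304 in HCT-8. Of the 14 proteasome genes with the antioxidant-type letters in a promoter, 8 were higher, 5 lower and 1 equal, with a median log2 difference of 0.07, below the 0.12 of all members.

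Upstream, 3 genes of ubiquitin and its activation were above the floor, 2 higher and 1 lower. The ubiquitin gene UBB read 12695 in HCT-8/V and 12045 in HCT-8. The main ubiquitin-activating enzyme UBA1 was lower on both probes above the floor, at 2939 and 1889 in HCT-8/V against 3600 and 2642 in HCT-8. UBA6, a related enzyme, read 260 in HCT-8/V and 232 in HCT-8. Of 7 genes that deliver substrates 4 were higher and 3 lower, with UBQLN4 at 846 in HCT-8/V and 642 in HCT-8 the widest. UBQLN1 read 1293 in HCT-8/V and 1397 in HCT-8. Its dimmer probes were lower by more, at 559 and 258 in HCT-8/V against 691 and 335 in HCT-8. UBQLN2 read 745 in HCT-8/V and 885 in HCT-8, and the unfoldase VCP 309 in HCT-8/V and 289 in HCT-8.

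**Figure D4:**
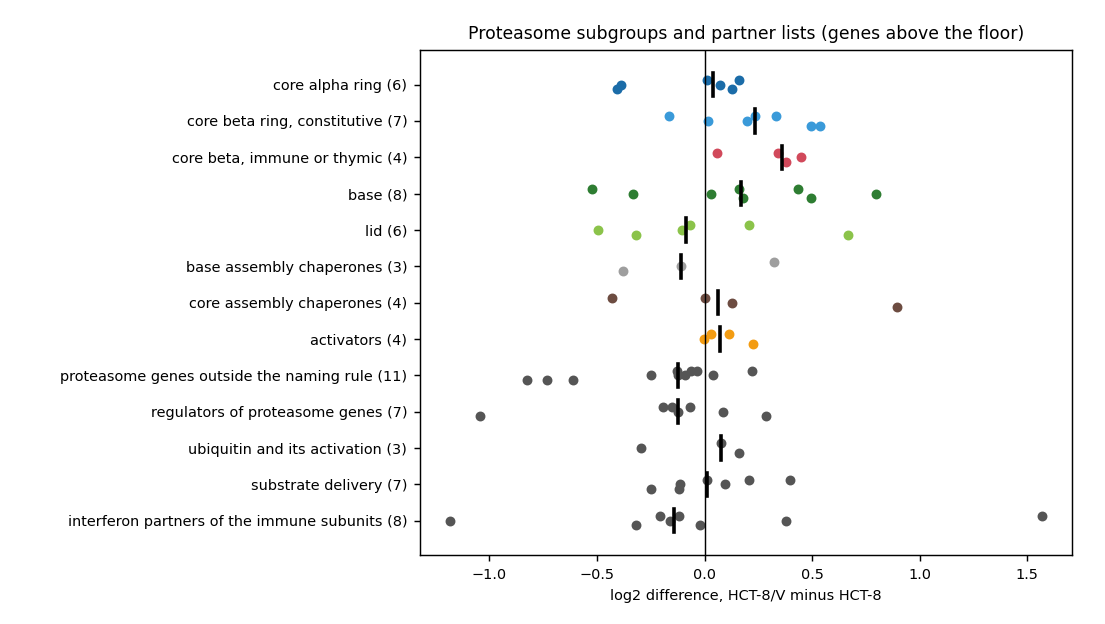
The log2 difference, HCT-8/V minus HCT-8, of each gene above the floor by its brightest probe, for the proteasome subgroups (coloured) and the lists of partner genes (grey), with the number of genes in parentheses and the median as a black bar. Medians run from -0.14 for the interferon partners to 0.36 for the immune or thymic beta genes.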

How the data were processed

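The deposited values are linear intensities of 47323 probes on each of the 2 arrays. Biotin-labelled cRNA was made for Illumina arrays, per the labels' protocols; the background and scaling steps are not given in the sources used here. Both arrays shared a minimum of -44.98 and a maximum of 19759 and were matched in distribution, so a shift common to most genes could not be seen. No detection p-values were used.

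Symbols came from the platform annotation, which can be old; 30113 probes had 1 symbol, 8 several and 17202 none, and 30074 were matched by Entrez ID to RefSeq (GRCh38.p14). PSMA7, PSMC5, PSMD7 and PSMD13 were not analysed here. Intensities under an array's median were raised to it, then taken to log2, in Python 3.11.15 with pandas 2.3.3; the difference code was tested on simulated data. A fold against a floored value is a lower bound. Each difference between lines was taken within 1 probe. Levels of different probes were used to rank probes, to class genes by brightness and to sum marker lists, and were not otherwise compared. Alternatives covered normalization (quantile, median centring, loess with span 0.3), the floor, the choice of probe, the fold and the summary. The members, lists and settings were chosen with earlier results of these data known. By the rule for names, all members are accounted for, and of the partner lists those past 1.5-fold and bright examples are named.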

Additional observations from a re-analysis of the deposited data

How the results depend on the processing

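No paired analysis was possible because each line had 1 array. A value was taken as stable when it moved by less than the SD per probe, 0.28 on the log2 scale, and a count when it stayed within 1.5 times. This margin is wider than the median of all members, 0.12, and than their median absolute log2 difference, 0.23. A value called stable could therefore still vanish or change sign. A mean in place of a median, or leaving out the dim genes, moved no median by more than 0.28. Under median centring, loess and no floor, the differences of the 42 members, the medians and both counts at 1.5-fold were stable by this measure. Quantile normalization and the higher floor also moved none of them by more, but could show little. The arrays were already matched in distribution, so quantile normalization had almost nothing to change. The 40 members that exceeded the higher floor did so on both arrays, so their differences could not change. The median of all members ran from 0.09 (centred) to 0.13 (higher floor) under these settings. Small differences changed sign in PSMA1, PSMB5, PSMC2 and PSME4 on centring and in PSMB5 with loess. The choice of probe mattered most. With the mean over probes, the median of all members was 0.04 with 24 higher and 18 lower, PSMA4, PSMB8, PSMB9 and PSMC1 changed sign, the median of the immune or thymic beta genes became -0.0049, 2 members (PSMD8 and PSMG3) were at least 1.5-fold higher and 1 (PSMB9) lower. With the second brightest probe, which 15 members had above the floor, 6 were higher and 9 lower. Of these 15, 6 changed sign: PSMA1, PSMA4, PSMB9, PSMC1, PSMC4 and PSMD12. Their median was -0.17, where the median of all genes was -0.08. It was -0.65 for the immune or thymic beta genes (2 genes) and -0.26 for the core assembly chaperones (1 gene). By this probe 0 members were at least 1.5-fold higher and 2 lower. At 2-fold 0 members were higher, and at a log2 difference of 0.322 or more 12 were higher and 7 lower. The number of arrays and the dimness of probes near the floor limit the precision.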

Other observations

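Genes whose names begin with a proteasome prefix but that the naming rule leaves out are listed for completeness. PSMC3IP, a recombination factor named for binding a proteasome ATPase, was lower on each of its 4 probes, the brightest at 236 in HCT-8/V and 265 in HCT-8. PSME3IP1 read 103 in HCT-8/V and 76.7 in HCT-8. The antisense gene of PSMG3, PSMG3-AS1, did not exceed the floor on either array, at 5.84 in HCT-8/V and -0.911 in HCT-8, while PSMG3 itself read 349 in HCT-8/V and 188 in HCT-8. The antisense gene PSMD6-AS2 read 14.6 in HCT-8/V and 7.24 in HCT-8, around the floor.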
